A study of Mus musculus with 9 samples.

Results

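H3K9 methylation and heterochromatin proteins were followed here through 10 genes, taken by gene name from the matrices of 28052 genes. They are the methyltransferases Setdb1, Ehmt1, Ehmt2 and Suv39h2, the corepressor Trim28, the demethylases Kdm3b and Kdm4a, and the HP1 genes Cbx1, Cbx3 and Cbx5. All 10 had a row, and 9 passed the filter on low counts that left 10993 genes for testing. Ehmt2 did not pass it.

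The samples were growing mouse oocytes from XX, XO and XY females at 18 dpp, 3 samples per genotype and 9 in all. Each sample pooled 30 oocytes, 10 of them 50–55 µm and 20 of them 55–60 µm in diameter. The labels name the strain C57BL/6 for all. XX and XY females were littermates from B6.YTIR males, in which the Y chromosome comes from a Mus musculus domesticus stock, and B6 females. XO females came from other matings, of males that carry the X-linked Paf (Patchy Fur) mutation, first on C3H/HeSnJ and then backcrossed to B6, so that XO and its breeding background cannot be told apart. RNA was read by Smart-seq3, which tags the 5′ end of each cDNA with a unique molecular identifier (UMI), and each sample held between 2130145 and 3157338 UMIs on genes. Oocyte markers (14 of 14 with a row) summed to between 19606 and 47092 normalized CPM, and granulosa cell markers (7 of 11 with a row) to between 48.0 and 92.1. Of the granulosa cell markers, Inha was at no more than 1 UMI and Amhr2 at no more than 2 in any sample. Others were read more, with up to 147 UMIs for Cyp19a1, 114 for Nr5a2 and 63 for Kitl in a sample. No label says whether the pools of a genotype share animals, and p-values therefore measure only the spread between these pools. In bulk pools, fewer cells with a transcript and less transcript per cell cannot be told apart.

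Methylation of lysine 9 on histone H3 marks repressed chromatin. SETDB1 trimethylates this lysine at retrotransposons and some genes, where TRIM28, bound to KRAB zinc finger proteins, recruits it. The partners EHMT1 (GLP) and EHMT2 (G9a) place the mono- and dimethyl marks, largely in euchromatin, and the SUV39H enzymes trimethylate pericentric heterochromatin. HP1 proteins bind the methylated lysine, and KDM3 and KDM4 enzymes take the methyl groups off. In growing oocytes this system is known for silencing retrotransposons and for organizing the chromatin around the centromeres.

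Most of these genes were not called different between genotypes. Ehmt1 and Kdm3b were called higher in XO than in both XX and XY oocytes by edgeR at the study's threshold, an unadjusted p below 0.05. Limma-voom with 2 surrogate variables, closer to the model of the study, called neither gene. Apart from Kdm5b, the paper states that it found no gene of histone modification among its differentially expressed genes. It also describes X-linked homologs, among them the demethylase gene Kdm6a, as following the X chromosome dosage. No member was called between XX and XY oocytes, and none passed after adjustment for all genes tested. The samples XO1 and XY1 stood apart, and in them Kdm4a and Setdb1 were at their lowest and Cbx1 and Cbx5 at their highest.

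To show the DNA in front of the genes that were low or high together in XO1 and XY1, and of Ehmt1, the 250 bases before the RefSeq start site (GRCm38.p6) are given from 5′ to 3′ on the strand of the gene. Capitals mark the CCAAT box (CCAAT), the GC box (GGGCGG) or the TATA box (TATAAA), searched on both strands. Where RefSeq gave more than 1 start site, the nearest to the 5′ end of the deposited gene was used.

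Setdb1 (chr3:95357203-95357452, minus strand): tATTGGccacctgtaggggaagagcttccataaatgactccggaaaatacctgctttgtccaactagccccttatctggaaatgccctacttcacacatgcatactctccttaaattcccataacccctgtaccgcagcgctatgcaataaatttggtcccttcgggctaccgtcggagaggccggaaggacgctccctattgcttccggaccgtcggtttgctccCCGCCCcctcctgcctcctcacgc

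Kdm4a (chr4:118180044-118180293, minus strand): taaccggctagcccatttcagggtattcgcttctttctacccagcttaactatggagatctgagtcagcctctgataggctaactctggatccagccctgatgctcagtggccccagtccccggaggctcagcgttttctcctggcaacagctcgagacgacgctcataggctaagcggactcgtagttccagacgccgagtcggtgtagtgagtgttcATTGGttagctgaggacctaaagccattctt

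Suv39h2 (chr2:3474987-3475236, minus strand): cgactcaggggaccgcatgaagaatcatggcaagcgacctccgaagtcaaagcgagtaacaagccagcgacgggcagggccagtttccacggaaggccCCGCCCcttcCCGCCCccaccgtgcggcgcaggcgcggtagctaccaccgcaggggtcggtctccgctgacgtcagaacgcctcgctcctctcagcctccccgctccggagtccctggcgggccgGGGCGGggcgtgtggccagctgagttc

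Cbx1 (chr11:96788885-96789134, plus strand): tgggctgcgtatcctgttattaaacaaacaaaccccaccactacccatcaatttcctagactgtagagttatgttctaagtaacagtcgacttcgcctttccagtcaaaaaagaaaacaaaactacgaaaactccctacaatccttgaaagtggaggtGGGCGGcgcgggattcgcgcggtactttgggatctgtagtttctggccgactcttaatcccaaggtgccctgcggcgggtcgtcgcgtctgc

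Cbx5 (chr15:103239853-103240102, minus strand): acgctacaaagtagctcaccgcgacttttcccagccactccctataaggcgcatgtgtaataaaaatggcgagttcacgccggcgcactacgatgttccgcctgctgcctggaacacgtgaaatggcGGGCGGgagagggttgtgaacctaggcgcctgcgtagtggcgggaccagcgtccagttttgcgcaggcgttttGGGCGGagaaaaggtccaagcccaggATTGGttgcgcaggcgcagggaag

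Ehmt1 (chr2:24919610-24919859, minus strand): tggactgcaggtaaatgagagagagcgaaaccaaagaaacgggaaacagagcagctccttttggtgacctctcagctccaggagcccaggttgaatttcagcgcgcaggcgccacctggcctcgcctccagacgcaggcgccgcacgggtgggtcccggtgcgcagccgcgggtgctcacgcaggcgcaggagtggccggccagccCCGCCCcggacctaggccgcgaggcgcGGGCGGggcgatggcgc

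The pair that was low in XO1 and XY1 had moderate GC content, 54.4% for Setdb1 and 53.6% for Kdm4a, and both windows held 1 CCAAT box, with 1 GC box in Setdb1 and 0 in Kdm4a. The windows of Suv39h2, Cbx1 and Cbx5, which were higher in these samples, held 69.6%, 49.6% and 59.2% GC and from 1 to 3 GC boxes, with 1 CCAAT box in Cbx5. No motif was held by every window of the low or of the high genes and by none of the others. So few windows allow no conclusion on a difference in motifs. The Ehmt1 window had 69.2% GC, 26 CpG dinucleotides and 2 GC boxes. Over all 32851 windows of this length outside chromosome 18, the median was 52.4% GC and 6 CpG dinucleotides, and 33.8% held a CCAAT box, 32.7% a GC box and 12.4% a TATA box, which none of the printed windows held. The motifs have no letters in common in the printed windows, and a match is a description of the letters only. Of the 10 genes, 9 had a window outside chromosome 18, and Kdm3b is not shown.

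**Figure D1:**
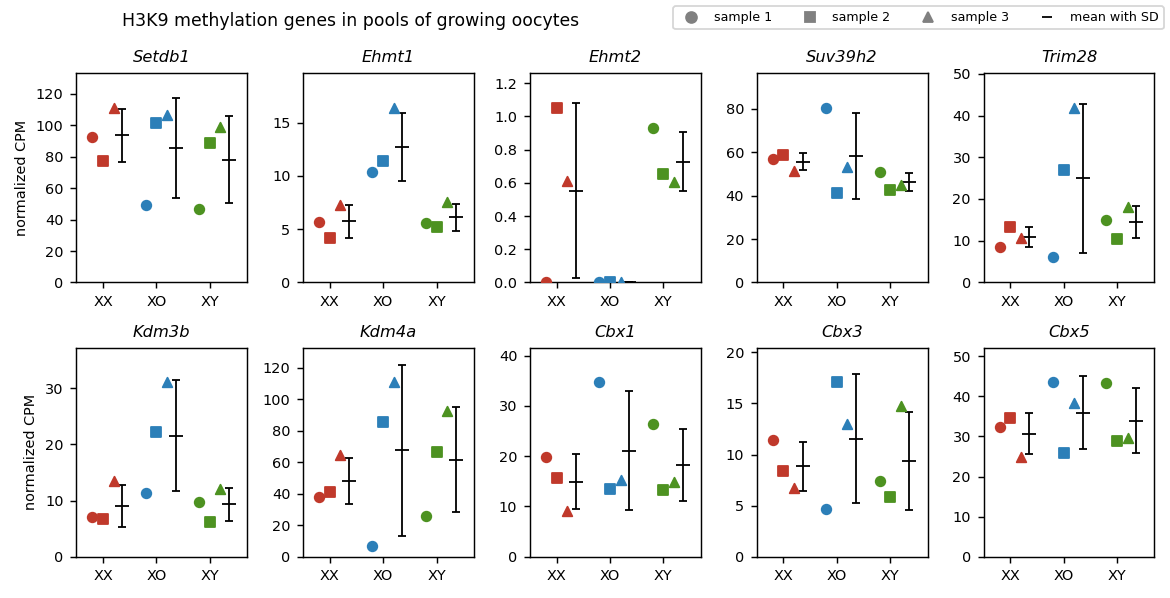
Normalized CPM (y axis of each panel, from 0) of the 10 genes in the XX, XO and XY samples, with circles for sample 1, squares for sample 2, triangles for sample 3, and the mean with SD of the 3 samples beside them. Ehmt1 is the panel in which all 3 XO samples (10.4 to 16.4) lie above all XX and XY samples (4.20 to 7.55), and Kdm4a spans the widest range within XO, from 6.73 to 111.

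Levels are given in normalized CPM, the UMI count scaled by the gene total and by the authors' factor from ERCC spike-in RNA. They are not divided by transcript length and are compared between genotypes, not between genes. Log2 fold changes come from edgeR's quasi-likelihood test on the UMI counts with the same factors, and a positive value means higher in the genotype named first. Under these factors the median of all tested genes was itself -0.46 for XX against XO, -0.19 for XX against XY and -0.30 for XY against XO. With TMM factors computed on the genes, these medians were -0.11, -0.01 and -0.13. Both scalings are therefore given where a direction or a call turns on them.

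Among the methyltransferases, Setdb1 (chr3:95323525-95357202, GRCm38) was read with 95 to 364 UMIs per sample. It was at 92.6, 77.0 and 111 normalized CPM in XX1, XX2 and XX3, at 49.2, 101 and 107 in XO1, XO2 and XO3, and at 46.5, 88.9 and 99.0 in XY1, XY2 and XY3. XO1 and XY1 lay below every other sample, and the other 7 samples overlapped across the genotypes. The means were 93.5 ± 17.0, 85.7 ± 31.8 and 78.1 ± 27.9 in XX, XO and XY (SD, n = 3). Neighbouring means in this order differed by less than these SDs. The log2 fold change of XX against XO was 0.13 ± 0.39 (SE), with a 95% interval from -0.75 to 1.00, and that of XX against XY was 0.26 ± 0.39, from -0.62 to 1.13. Without XO1 and XY1 these values were -0.15 and -0.01, neither called.

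Ehmt1 (chr2:24789928-24919614) was the methyltransferase with the clearest separation. It was at 5.70, 4.20 and 7.31 normalized CPM in the XX samples, at 10.4, 11.4 and 16.4 in the XO samples and at 5.58, 5.21 and 7.55 in the XY samples. Every XO sample was above every XX and every XY sample, while XX and XY overlapped. Of all tested genes, 13.6% had all XO samples above all XX samples and 6.34% had all XO samples above all XY samples. The means were 5.74 ± 1.56 in XX, 12.7 ± 3.22 in XO and 6.11 ± 1.26 in XY. XO was 2.19-fold higher than XX (log2 -1.13 ± 0.36 for XX against XO, called, adjusted p = 0.203). XO was 2.06-fold higher than XY (-1.04 ± 0.36, called, adjusted p = 0.485). XX and XY differed by -0.09 ± 0.36, with a 95% interval from -0.91 to 0.72.

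The counts behind Ehmt1 were low, 12 to 29 UMIs per sample, and at 12 UMIs counting error alone is 28.9%. With TMM factors both XO differences were smaller and still called, at -0.76 and -0.85. With gene totals alone they were -0.54 and -0.60, and neither was called. ERCC totals gave -0.15 and -0.82 and limma-voom with 2 surrogate variables -0.55 and -0.65, with no call in either. DESeq2 gave -0.79, not called, and -0.88, called. One normalized CPM unit also weighs UMIs differently by genotype, as 1 UMI was worth 0.517 to 0.565 normalized CPM in XO samples and 0.305 to 0.356 in XX samples. Without XO1 and XY1 the differences were -1.25 and -1.11, both called. Leaving out XO3 or XY2 ended the call of XY against XO, at -0.82 and -0.94.

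Ehmt2 (chr17:34898469-34914052), whose protein pairs with EHMT1, was close to absent from the reads. It had 0, 3 and 2 UMIs in the XX samples, 0 in each of the 3 XO samples, and 2 in each of the 3 XY samples. A count of 0 over the XO samples allows up to 3 UMIs, or 0.532 normalized CPM, which is close to the XX mean of 0.553 ± 0.527 and below the XY mean of 0.728 ± 0.176. The fit without a filter called Ehmt2 higher in XY than in XO, on 6 UMIs against 0, and did not call it between XX and XO. A difference between XX and XO in Ehmt2 was not detectable at this depth, and intervals and limits of this kind cover counting error only. The ratio of Ehmt1 to Ehmt2 had no value in the 4 samples without an Ehmt2 UMI.

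Suv39h2 (chr2:3455815-3475031) was at 56.6, 58.8 and 51.5 normalized CPM in XX, at 80.3, 41.4 and 53.1 in XO and at 50.7, 42.6 and 45.0 in XY. All XX samples were above all XY samples, by a narrow margin, and XO spanned both. Its means were 55.6 ± 3.77, 58.2 ± 20.0 and 46.1 ± 4.12, and XX against XY was 0.27 ± 0.29 (95% interval -0.38 to 0.92), not called. Of all tested genes, 4.15% had all XX samples above all XY samples.

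Suv39h1, the X-linked gene of the other SUV39H enzyme (chrX:8061171-8074760), is not one of the 10 and was read beside Suv39h2. It was at 13.2, 10.9 and 14.6 normalized CPM in XX, at 5.70, 15.0 and 41.2 in XO and at 5.11, 3.26 and 8.75 in XY. The XO samples ranged from the level of XY to far above XX. XX against XO was -0.67 ± 0.62 and not called, while limma-voom called Suv39h1 higher in XX. Without XO1, or without both XO1 and XY1, edgeR called it in the other direction, higher in XO. In the authors' batch-regressed values, which have no test, XX minus XO was 0.93. Suv39h1 was called lower in XY than in XO (-1.83 ± 0.65, adjusted p = 0.485), and XX against XY was 1.16 ± 0.65 and not called. The call of XY against XO was lost with gene UMI totals (-1.34), ERCC totals (-1.59) and limma-voom (-0.37). It was also lost without XO3 (-0.84), XY1 (-1.76) or XY2 (-1.55), and stood at -2.20 without both XO1 and XY1. Under TMM factors XX against XY was 1.37 and called. It was also called with DESeq2, limma-voom, no filter, the replicate block or only the 2 genotypes compared, and without XO1 or XO3. Gene UMI totals, ERCC totals, the other fits that left out 1 sample and the fit without both XO1 and XY1 did not call it. All XX samples were above all XY samples, as for 4.15% of all tested genes.

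The log2 ratio of Suv39h1 to Suv39h2 UMIs averaged -2.12 ± 0.31 in XX, -1.88 ± 1.76 in XO and -3.13 ± 0.69 in XY. An exact permutation test over all 1680 assignments of the 9 samples to genotypes gave p = 0.425 for any difference between genotypes, with 0.00357 the smallest p it can give, and the adjusted p over 2 ratios was 0.525. The value of p depended on XO1, which had the lowest ratio of all samples at -3.82. Without XO1 the exact permutation p was 0.0107.

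Trim28 (chr7:12999114-13031035) encodes the corepressor that brings SETDB1 to its targets. It was at 8.55, 13.3 and 10.7 normalized CPM in XX, at 6.21, 26.9 and 41.8 in XO and at 14.9, 10.4 and 18.1 in XY. XO2 and XO3 were the highest of all samples and XO1 the lowest. The means were 10.8 ± 2.38, 25.0 ± 17.9 and 14.5 ± 3.86, and XX against XO was -1.20 ± 0.57 (95% interval -2.47 to 0.08), not called. Without XO1 and XY1 it was -1.66, and XY against XO was -1.26, both called. Without XO3 they were -0.61 and -0.19, neither called. The fit without a filter called XX against XO, at -1.20, and limma-voom gave 0.02 and 0.09, the opposite sign, with no call. The deposited gene region starts 25038 bases before the RefSeq start site of Trim28, and where in the region its 12 to 74 UMIs lie was not tested.

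Of the demethylase genes, Kdm3b (chr18:34777047-34838660), which encodes a demethylase of the mono- and dimethyl marks, was at 7.12, 6.65 and 13.4 normalized CPM in XX, at 11.4, 22.2 and 31.0 in XO and at 9.76, 6.19 and 12.1 in XY. XO2 and XO3 were above all XX and XY samples, and XO1 fell among them. The means were 9.06 ± 3.77, 21.6 ± 9.85 and 9.34 ± 2.97.

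Kdm3b was called 2.36-fold higher in XO than in XX (-1.24 ± 0.46 for XX against XO, adjusted p = 0.229). It was 2.30-fold higher in XO than in XY (-1.20 ± 0.46, called, adjusted p = 0.485), and XX against XY was -0.04 ± 0.46, with a 95% interval from -1.08 to 1.00. With TMM factors XX against XO was -0.83 and no longer called, and XY against XO was -0.99 and still called. With gene UMI totals the values were -0.62 and -0.75, with ERCC totals -0.21 and -1.03 and with limma-voom -0.39 and -0.62, none called. DESeq2 gave -0.86, not called, and -1.02, called. Without XO1 and XY1 the values were -1.54 and -1.53, both called. The call of XX against XO ended when XX1, XX2, XO2 or XO3 was left out, and that of XY against XO when XO2, XO3, XY1 or XY2 was left out. Over all 9 such fits the values ranged from -1.64 to -0.88 and from -1.50 to -0.84. Blood and endothelial markers (3 of 6 with a row) summed to 110 and 132 normalized CPM in XO2 and XO3 against 16.1 to 59.2 in the other samples, and Pecam1 alone gave 109 and 132 of these sums. Cdh5 was lowest in XO2 and XO3 (0.52 and 0.56) and highest in XY1 (5.11, 11 UMIs), and Lyz2 had no more than 1 UMI in any sample. Some oocyte markers were also highest in XO2 and XO3, such as Zp1 (759 and 2166 against 14.0 to 129 in the other samples) and Gdf9 (869 and 2432 against 234 to 350). Others were not, such as Zp2 (14837 and 16248 against 4919 to 17150) and Ddx4 (438 and 420 against 402 to 759). The part of all these markers in the Kdm3b and Trim28 levels was not tested.

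Kdm4a (chr4:118136957-118180043), which encodes a demethylase of the trimethyl mark, showed the widest spread of the 10. It was at 38.1, 41.0 and 64.6 normalized CPM in XX, at 6.73, 85.8 and 111 in XO and at 26.0, 66.4 and 92.4 in XY. In UMIs, XO1 held 13 where XO2 held 166 and XO3 held 196, and XY1 held 56 where XY2 held 204 and XY3 held 306. The means of 47.9 ± 14.5, 67.7 ± 54.3 and 61.6 ± 33.4 lay further apart between XX and XO than the SD in XX and less far than the SD in XO, which includes the low XO1. The log2 fold change of XX against XO was -0.50 ± 0.79 (95% interval -2.26 to 1.26), not called. Without XO1 and XY1, Kdm4a was called lower in XX than in XO (-1.03) and lower in XX than in XY (-0.73).

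The HP1 genes encode the readers of the mark, HP1β (Cbx1), HP1γ (Cbx3) and HP1α (Cbx5). None was called in any comparison. Cbx1 (chr11:96789127-96808640) was at 19.9, 15.8 and 9.14 normalized CPM in XX, at 34.7, 13.4 and 15.2 in XO and at 26.5, 13.3 and 14.8 in XY. Cbx5 (chr15:103191544-103239816) was at 32.4, 34.7 and 25.0 in XX, at 43.5, 25.8 and 38.4 in XO and at 43.2, 29.0 and 29.6 in XY. XO1 and XY1 had the highest values of both genes, and the other samples overlapped.

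Cbx3 (chr6:51470360-51483704) was at 11.4, 8.40 and 6.70 normalized CPM in XX, at 4.66, 17.1 and 13.0 in XO and at 7.44, 5.86 and 14.8 in XY. XO1 was here the lowest sample of all. For XX against XO, the log2 fold change was -0.50 ± 0.47 for Cbx1 (95% interval -1.56 to 0.56), -0.39 ± 0.52 for Cbx3 (-1.56 to 0.78) and -0.23 ± 0.31 for Cbx5 (-0.91 to 0.46). For XX against XY it was -0.28 ± 0.47 for Cbx1, -0.10 ± 0.52 for Cbx3 and -0.14 ± 0.30 for Cbx5. With those samples (XO1 and XY1) left out, XX against XO was 0.05 for Cbx1, -0.77 for Cbx3 and -0.06 for Cbx5, and 0.24 for Suv39h2, none called. In the same fit XX against XY was 0.08 for Cbx1 and 0.07 for Cbx5, opposite in sign to the values above, -0.24 for Cbx3 and 0.34 for Suv39h2, none called. Under TMM factors Cbx3 and Cbx5 changed sign in both comparisons. Cbx1 and Cbx3 also have processed pseudogenes, and how reads that match several places were counted is not given in the sources used here, so their levels carry that uncertainty.

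As a share of all HP1 UMIs in a sample, Cbx5 took 50.8%, 58.9% and 61.2% in XX (95% Wilson intervals 43.6 to 58.1, 51.4 to 66.1 and 52.7 to 69.0). It took 52.5%, 45.9% and 57.6% in XO (44.8 to 60.1, 36.8 to 55.2 and 48.6 to 66.2). It took 56.0%, 60.1% and 50.0% in XY (48.4 to 63.4, 52.1 to 67.7 and 43.1 to 56.9). Cbx5 was the largest share of UMIs in all 9 samples, which does not rank the transcript levels of the genes. Its interval overlapped that of Cbx1 in XO1 (41.9%, 34.5 to 49.6) and that of Cbx3 in XO2. The means were 57.0 ± 5.44, 52.0 ± 5.89 and 55.4 ± 5.10%, and the exact permutation test gave p = 0.525. Cbx3 varied most, from 5.63% in XO1 (95% Wilson interval 3.0 to 10.3) and 9.64% in XY1 (6.0 to 15.1) to 30.3% in XO2 (22.4 to 39.5).

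**Figure D2:**
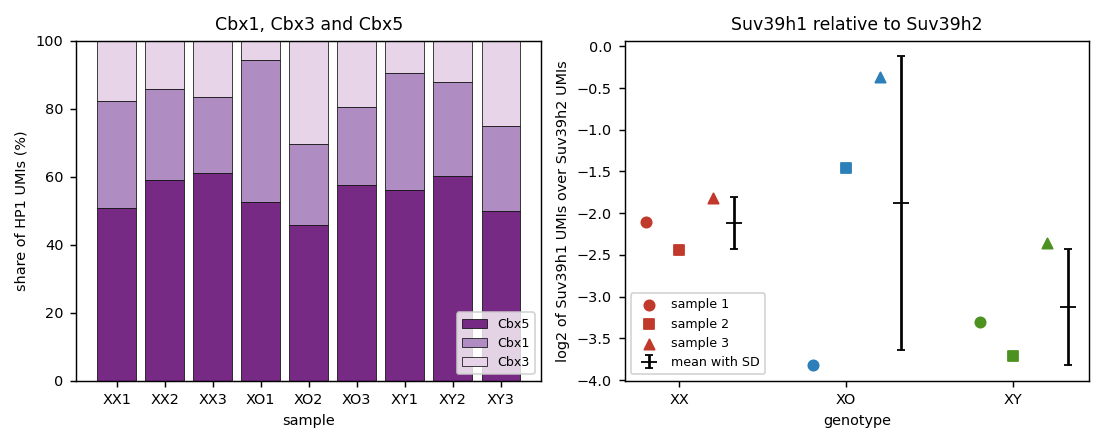
Left, the share of Cbx5, Cbx1 and Cbx3 in the HP1 UMIs of each sample (stacked bars, in percent). Right, the log2 ratio of Suv39h1 to Suv39h2 UMIs by genotype, with 1 point per sample and the mean with SD, where XO spans from -3.82 in XO1 to -0.36 in XO3.

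Counted together, 2 of the 9 tested members were called between XX and XO, both higher in XO, where 18.1% of all genes tested were called and 16.7% were called higher in XO. In this fit 1.4% were called higher in XX, whereas the paper describes lower transcript levels of many autosomal genes in XO oocytes. Between XX and XY, edgeR called 0 of 9, where it called 5.8% of all genes. DESeq2 and limma-voom also called 0 of 9, and their shares of all genes were not computed. Between XY and XO, 2 of 9 were called, both higher in XO, where 9.93% of all genes were called and 8.24% were called higher in XO. The share of members called between XX and XO was near that of all genes. The median log2 fold change of the 9 members was -0.50 for XX against XO, -0.10 for XX against XY and -0.29 for XY against XO, beside -0.46, -0.19 and -0.30 over all genes tested. After adjustment edgeR called 0 of 9 members in each comparison, where it called 0%, 0.0819% and 0.0364% of all genes. The comparisons of XX and of XY with XO share the XO samples, so the calls of Ehmt1 and Kdm3b in both rest on the same 3 pools.

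The authors also deposited log2 values with batch effects regressed out, whose genotype means were compared with no test. There XX minus XO was -0.36 for Ehmt1 and -0.23 for Kdm3b, both smaller in size than above, and XY minus XO was -0.40 and -0.30. Trim28 and Kdm4a were there higher in XX than in XO, by 0.34 and 1.87, and higher in XY than in XO, by 0.60 and 1.98, opposite in sign to the fit on counts. XX minus XO was also 1.11 for Setdb1 and 0.75 for Cbx3.

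**Figure D3:**
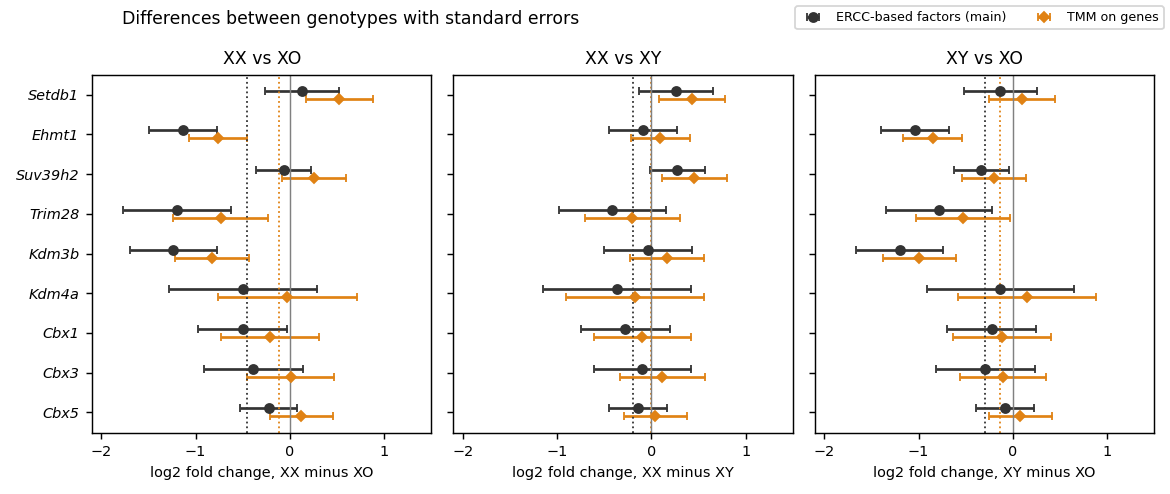
Log2 fold changes with SE (x axis) of the 9 tested members (y axis) in the 3 comparisons, with the ERCC-based factors in black and TMM factors in orange, and dotted lines at the median of all tested genes under each scaling. Ehmt1 and Kdm3b lie left of the dotted lines in both comparisons with XO, as does Trim28 with longer bars.

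XO1 and XY1 stood apart from samples 2 and 3 of their genotypes. On TMM-scaled values, Setdb1 in sample 1 was at 0.601 of the mean of samples 2 and 3 in XO and at 0.488 in XY, and Kdm4a was at 0.0877 and 0.327. In the other direction, Cbx1 was at 3.08 and 1.86 times that mean, Cbx5 at 1.74 and 1.45 times, and Suv39h2 at 2.17 and 1.14 times. Trim28, Kdm3b, Cbx3 and Ehmt1 had no common direction in the 2 genotypes or no clear place for sample 1. In XX the same ratios were 0.905 for Setdb1, 0.665 for Kdm4a, 1.44 for Cbx1, 0.983 for Cbx5 and 0.933 for Suv39h2.

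Thus 2 of 9 members had sample 1 lowest in both XO and XY and 3 of 9 had it highest, where 35.7% and 33.8% of all tested genes did. The members' shares were below or near those of all genes. Oocyte markers summed to 19606 and 20947 normalized CPM in XO1 and XY1 against 28990 to 47092 in the other samples. In both samples 8 of the 14 markers lay below all other samples, among them Zp2 (4919 and 10049 against 14837 to 17150), Dppa3 and Npm2. Oosp1 lay above all others (9137 and 5572 against 2225 to 4242), and the other 5 were mixed, with Ddx4 highest in XY1 (759). Their part in the levels of the members was not tested. Without both samples, 4 of 9 members were called between XX and XO (Ehmt1, Kdm3b, Trim28 and Kdm4a, all higher in XO), where 40.7% of all genes were called. Then 1 of 9 was called between XX and XY (Kdm4a, 16% of all genes) and 3 of 9 between XY and XO (Ehmt1, Kdm3b and Trim28, 27.1% of all genes).

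**Figure D4:**
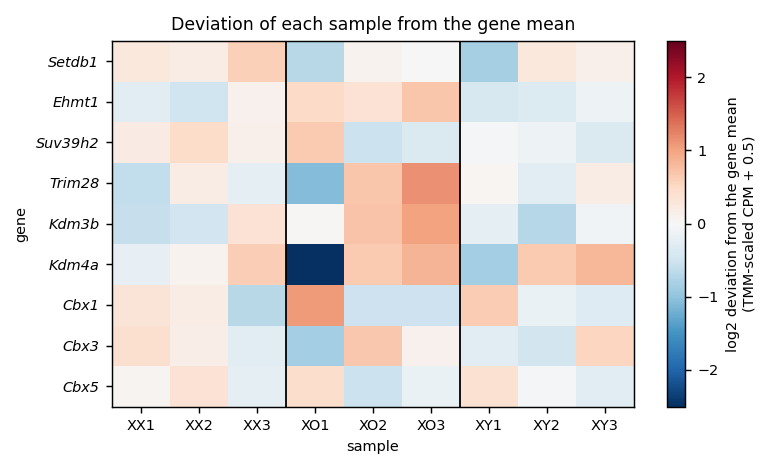
Log2 deviation of each sample (columns) from the gene's own mean over the 9 samples (rows, the 9 tested members), on TMM-scaled CPM with 0.5 added, from blue (lower) to red (higher). XO1 and XY1 are blue for Setdb1 and Kdm4a and red for Cbx1 and Cbx5, while Ehmt1 is red across all 3 XO samples.

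Around the 10 genes, 37 further genes of the pathway were listed by role, of which 36 had a row and 27 were tested. The demethylase gene Hr was not analysed here. Between XX and XO, 1 of the 27 was called higher in XX and 4 higher in XO, where 1.4% and 16.7% of all genes tested were, and 18.1% in either direction. Between XX and XY, 1 was called higher in XX, where 1.41% of all genes were, and 0 higher in XY by edgeR. Between XY and XO, 0 were called higher in XY and 3 higher in XO, where 8.24% of all genes were called higher in XO and 9.93% in either direction. After adjustment 0 of 27 were called in each comparison by edgeR. The medians of the 27 were -0.55, -0.07 and -0.52, beside those of all genes given above.

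Phf8 (chrX:151520672-151633859), an X-linked demethylase of the dimethyl mark, was called in the opposite direction to the other genes called for XX against XO. It was at 61.3, 61.6 and 52.1 normalized CPM in XX, at 39.3, 34.6 and 36.7 in XO and at 35.8, 28.6 and 31.1 in XY. All XX samples were above all XO and XY samples. Of all tested genes, 4.15% had all XX samples above all XY samples, and the share with all XX above all XO samples was not computed. XX was 1.58-fold higher than XO (0.66 ± 0.24, adjusted p = 0.223) and 1.83-fold higher than XY (0.87 ± 0.24, adjusted p = 0.436). Under TMM factors both differences were larger, at 1.01 and 1.06. The call of XX against XO was lost without XX1 (0.62), XX2 (0.62) or XO2 (0.62) and in the fit without a filter, and that of XX against XY was kept in every fit that left out 1 sample (0.80 to 0.96). XY against XO was -0.21 ± 0.24, with a 95% interval from -0.75 to 0.32.

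Kdm7a, a relative of Phf8 on an autosome, was at 69.5, 63.4 and 58.5 normalized CPM in XX, at 86.5, 70.8 and 58.7 in XO and at 51.6, 46.6 and 40.8 in XY. All XY samples were below all others, and XY against XO was called (-0.64 ± 0.26, adjusted p = 0.489). Under TMM factors the value was -0.48 and not called. Without XX2, XO1, XO2, XY2 or XY3 the call was also lost (-0.65 to -0.49), and without both XO1 and XY1 it was -0.57 and called.

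Among the readers and HP1 partners, Lbr, which encodes the lamin B receptor that tethers heterochromatin to the nuclear envelope, was at 80.5, 75.3 and 81.6 normalized CPM in XX, at 125, 112 and 129 in XO and at 75.8, 66.1 and 93.9 in XY. Lbr was called higher in XO than in XX (-0.62 ± 0.25 for XX against XO, adjusted p = 0.248) and than in XY (-0.63 ± 0.25, adjusted p = 0.485). Pogz, an HP1-binding protein gene, was called in XX against XO (-0.81 ± 0.35, adjusted p = 0.268), with XX at 12.1, 7.35 and 10.1 and XO at 10.9, 20.7 and 20.3 normalized CPM. Hp1bp3 (-0.85 ± 0.37, adjusted p = 0.268) and Zfp809 (-1.35 ± 0.48, adjusted p = 0.218), both below a mean of 10 normalized CPM, completed the calls of XX against XO and are named after their values were seen. Under TMM factors none of Lbr, Pogz, Hp1bp3 and Zfp809 was called in any comparison. With XO1 and XY1 both left out, XX against XO was -0.61 for Lbr, -1.06 for Pogz and -1.63 for Zfp809, all called, and -0.85 for Hp1bp3, not called. In the fits that left out 1 sample, the calls of all 4 genes for XX against XO were lost at least once, and with ERCC totals XX against XO was 0.31 for Lbr and 0.01 for Pogz, opposite in sign.

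By role, 0 of 4 tested methyltransferases, 1 of 4 demethylases, 1 of 9 partners and recruiters of the methyltransferases, 0 of 4 genes of the HUSH complex with Morc2a, and 3 of 6 readers and HP1 partners were called between XX and XO, beside the 18.1% of all genes. Counts of this size in lists of 4 to 9 genes are a description only. The HUSH complex silences retrotransposons through SETDB1, and its 4 genes had a median log2 fold change of -0.13 for XX against XO and 0.31 for XX against XY. For XY against XO the calls by role numbered 1, 1, 0, 0 and 1 in the same order, beside 9.93% of all genes. A further fit was blocked on sample number over all 9 samples, XX included. There 5 of the 27 were called between XY and XO (Uhrf1, Lbr, Suv39h1, Kdm7a and Setdb2), where 16.6% of all genes were. Without XO1 and XY1, 13 of the 27 were called for XX against XO, 2 for XX against XY and 10 for the remaining comparison, where 40.7%, 16% and 27.1% of all genes were called.

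**Figure D5:**
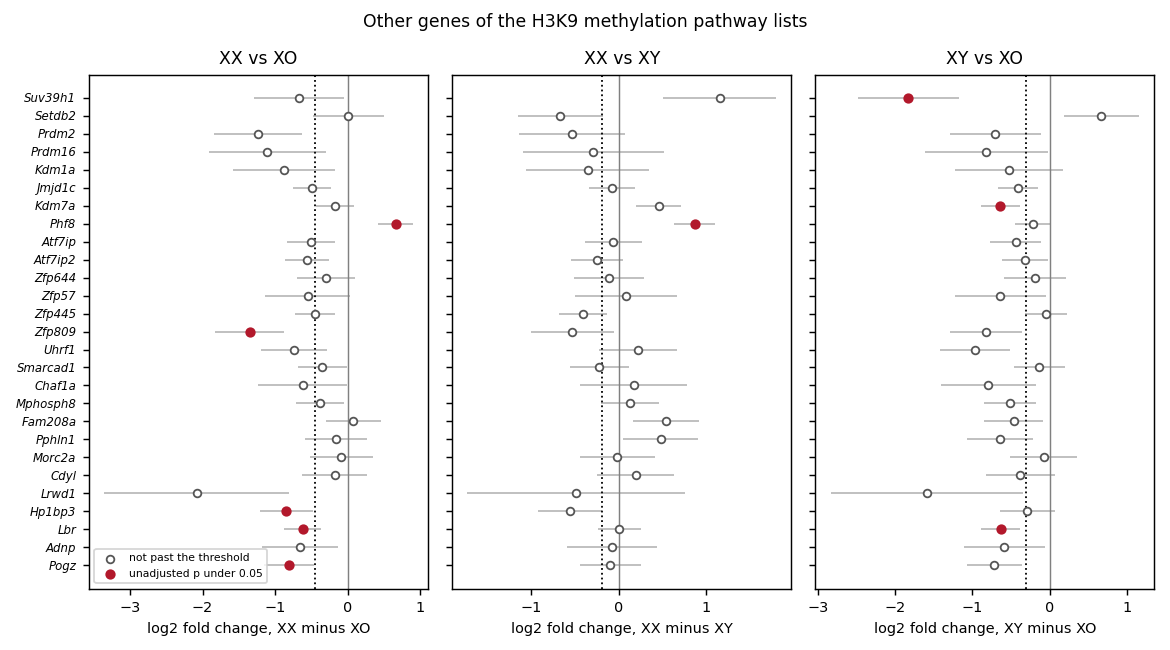
Log2 fold changes with SE (x axis) of the 27 tested pathway genes (y axis) in the 3 comparisons. Filled red points mark an unadjusted p under 0.05, and the dotted line is the median of all tested genes. Phf8 is the only red point to the right of 0, at 0.66 and 0.87.

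For each member, the gene most like it across the 9 samples was sought among the genes that averaged 10 normalized CPM or more (7275 for a member that is itself among them, 7276 otherwise), by Pearson's r of log2 TMM-scaled CPM with 0.5 added. These values are the highest of many and share library, depth and the position of XO1 and XY1, so they describe likeness only. The closest genes were Elp5 (r = 0.992) and Creb3l4 (0.991) to Kdm4a, CT572998.1 (0.987) and Pfkfb1 (0.969) to Setdb1, and Pkd1l3 (0.983) and Zswim3 (0.964) to Kdm3b. For Ehmt1 they were Fam13c (0.973) and Ibtk (0.955), for Suv39h2 Nlrp4e (0.978) and Zfp969 (0.974), and for Trim28 Duxbl1 (0.966) and Ahsa1 (0.947). Among the HP1 genes they were Ppp6r3 (0.983) and Vmn2r58 (0.982) for Cbx1, Gm35618 (0.980) and 6820431F20Rik (0.979) for Cbx5, and AC133183.1 (0.901) and 6330549D23Rik (0.883) for Cbx3.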

How the data were processed

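The samples, 9 pools of oocytes, were grouped by the genotype in their labels, and the members and gene lists were chosen with earlier results of these data known. The authors aligned Smart-seq3 reads with HISAT2 to GRCm38 and Gencode and deposited UMI counts per gene (28052 genes, 79 ERCC spike-ins and 1 further entry at 0). The deposited normalized CPM (a signal) is the authors' scaling of these counts by ERCC TMM factors. The authors also deposited log2 values with batch effects regressed out, used here only as an alternative.

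Counts of genes kept by filterByExpr were fitted with edgeR 4.0.16 (R 4.3.3) over all 9 samples, with the authors' factors, and called at an unadjusted p below 0.05, the threshold of the study, with Benjamini-Hochberg adjusted p beside it. Alternatives were limma 3.58.1 (voom) with 2 surrogate variables from sva 3.50.0 (the study also put surrogate variables into limma, but after the lv2 transformation of countTransformers, which was not used here), DESeq2 1.42.0, TMM factors, gene or ERCC totals, no filter, a replicate block and leaving out samples. Deviations of same-numbered XY and XO samples correlated at 0.818, 0.272 and 0.766, with the low value for sample 2. Numbers were taken to pair these genotypes only in the replicate block, and the main fit left the samples unpaired. No label states this pairing, and it was read from the same data. The description label of XO1 names it XO_2, so the numbering of the XO samples is not certain. The paper gives XX1, XO2 and XY1 as the replicates less like the rest of their genotype. Ratios were tested by exact permutation tests for any difference between genotypes in Python 3.11.15 with SciPy 1.17.1. ERCC UMIs were 0.204 to 0.862% of all UMIs, less than the share of reads that the paper had calculated in theory. The common dispersion of the edgeR fit was 0.201, so the spread between pools adds to the counting error of each gene.

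Named pathway genes were Suv39h1 and, per comparison, up to 4 called genes with the largest change and 10 normalized CPM or more on average. The 2 most alike genes are named for each member. The edgeR step was tested on simulated data. No column of comparisons by the authors was used.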

Additional observations from a re-analysis of the deposited data

How the results depend on the processing

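Members called between XX and XO numbered 1 with TMM factors and 0 with gene UMI totals, ERCC totals, DESeq2, limma-voom with 2 surrogate variables or an adjusted p, against 2 in the report, and 3 with no filter (Trim28 added). Between XY and XO they numbered 2 with TMM factors and DESeq2, 0 with gene UMI totals, ERCC totals or an adjusted p, 1 with limma-voom (Kdm4a, higher in XY) and 3 with no filter (Ehmt2 added, higher in XY). With XO1 and XY1 left out they were 4, 1 and 3. Leaving out 1 sample gave 1 to 4 for XX against XO, 0 for XX against XY and 0 to 3 for XY against XO. The cause of these changes was not tested. The share of all genes called was computed only for the adjusted p and for the fit without XO1 and XY1. The other counts of members here cannot be set against such a share.

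Pathway genes called between XX and XO numbered 1 with TMM factors, gene UMI totals, ERCC totals or DESeq2, 2 with limma-voom or only the compared genotypes, 0 with an adjusted p and 13 without XO1 and XY1. Between XX and XY they numbered 2 with TMM factors, gene UMI totals, DESeq2, no filter, the replicate block, only the compared genotypes or without XO1 and XY1, 5 with limma-voom and 0 with an adjusted p. Between XY and XO they numbered 1 with TMM factors or only the compared genotypes, 0 with gene UMI totals, ERCC totals or an adjusted p, 5 with no filter or the replicate block, and 10 without XO1 and XY1. Leaving out 1 sample gave 0 to 12, 1 to 2 and 0 to 11. Without XO1 alone it was 12 and 11 for the comparisons with XO. The share of all genes was computed only for the adjusted p, without XO1 and XY1, and with the block between XY and XO. The other counts of pathway genes cannot be set against such a share.

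The replicate block left the called members as they were. The numbers of XX samples were not taken as pairs with the others (correlations of deviations of 0.450, -0.427 and 0.665 with XO and 0.416, -0.0581 and 0.711 with XY). The block still grouped XX samples by number, in the fits and in the permutation tests. The exact permutation p of the Suv39h1 to Suv39h2 ratio was 0.361 and that of the Cbx5 share 0.639 with the replicate block. Leaving out 1 sample gave 0.0107 to 0.682 for the ratio. The Ehmt1 to Ehmt2 ratio had a value only with 0.5 added to each count (exact permutation p = 0.05), which rests on counts of 0 in 4 samples, and its other alternatives were not run.

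Of the log2 fold changes that changed sign, those of Lbr and Pogz for XX against XO had been called, and those of members had not. Pathway genes are listed here only for comparisons that had been called, so Suv39h1 for XX against XO is not among them. In the authors' batch-regressed values, which have no test, the signs that differed were, for XX against XO Suv39h2 0.33, Trim28 0.34, Kdm4a 1.87, Cbx3 0.75, Cbx5 0.18, Pogz 0.0083, and for XX against XY Ehmt1 0.038, Kdm3b 0.069, Cbx3 0.12, Cbx5 0.013, and for XY against XO Setdb1 0.67, Trim28 0.60, Kdm4a 1.98, Cbx3 0.62, Cbx5 0.17. With TMM factors on the genes the values that changed sign were, for XX against XO Suv39h2 0.25, Cbx3 0.0075, Cbx5 0.12, and for XX against XY Ehmt1 0.092, Kdm3b 0.16, Cbx3 0.11, Cbx5 0.042, and for XY against XO Setdb1 0.094, Kdm4a 0.15, Cbx5 0.076. With gene UMI totals alone the values that changed sign were, for XX against XO Suv39h2 0.49, Kdm4a 0.13, Cbx1 0.031, Cbx3 0.17, Cbx5 0.34, and for XX against XY Ehmt1 0.057, Kdm3b 0.13, Cbx3 0.043, Cbx5 0.00014, and for XY against XO Setdb1 0.33, Suv39h2 0.082, Kdm4a 0.36, Cbx1 0.17, Cbx3 0.13, Cbx5 0.34. With ERCC totals the values that changed sign were, for XX against XO Suv39h2 0.88, Kdm4a 0.40, Cbx1 0.32, Cbx3 0.23, Cbx5 0.62, Lbr 0.31, Pogz 0.013, and for XX against XY Ehmt1 0.67, Trim28 0.19, Kdm3b 0.81, Kdm4a 0.30, Cbx1 0.36, Cbx3 0.29, Cbx5 0.56, and for XY against XO Setdb1 0.087, Kdm4a 0.10, Cbx5 0.064. With DESeq2 the values that changed sign were, for XX against XO Suv39h2 0.22, Cbx5 0.077, and for XX against XY Ehmt1 0.082, Kdm3b 0.16, Cbx3 0.094, Cbx5 0.021, and for XY against XO Setdb1 0.069, Kdm4a 0.12, Cbx5 0.057. With limma-voom with 2 surrogate variables the values that changed sign were, for XX against XO Suv39h2 0.10, Trim28 0.020, Kdm4a 0.39, Cbx1 0.14, Cbx3 0.45, Cbx5 0.26, and for XX against XY Ehmt1 0.10, Kdm3b 0.23, Cbx1 0.083, Cbx3 0.13, Cbx5 0.12, and for XY against XO Trim28 0.090, Kdm4a 0.71, Cbx1 0.056, Cbx3 0.32, Cbx5 0.14. With the replicate block the values that changed sign were, for XY against XO Kdm4a 0.10. With XO1 and XY1 left out, an alternative chosen after seeing the data, the values that changed sign were, for XX against XO Setdb1 -0.15, Suv39h2 0.24, Cbx1 0.054, and for XX against XY Setdb1 -0.0060, Cbx1 0.079, Cbx5 0.066. Leaving out 1 sample gave ranges that include both signs for XX against XO Setdb1 -0.15 to 0.31, Suv39h2 -0.26 to 0.24, Kdm4a -1.03 to 0.050, Cbx1 -0.76 to 0.055, Cbx3 -0.77 to 0.0059, for XX against XY Setdb1 -0.0064 to 0.46, Ehmt1 -0.31 to 0.10, Kdm3b -0.44 to 0.20, Kdm4a -0.73 to 0.047, Cbx1 -0.54 to 0.084, Cbx3 -0.35 to 0.41, Cbx5 -0.24 to 0.067, and for XY against XO Setdb1 -0.41 to 0.13, Kdm4a -0.66 to 0.42, Cbx1 -0.59 to 0.33, Cbx3 -0.80 to 0.10, Cbx5 -0.29 to 0.075.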
